A study of Mus musculus with 2 samples.

Results

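The genes examined were the 10 MHC antigen presentation genes H2-K1, H2-D1, B2m, Tap1, Psmb8, H2-Aa, H2-Ab1, H2-Eb1, Cd74 and Ciita. They were chosen by symbol from a table of 32285 genes, and all 10 were found. Their transcripts were counted in single liver cells, chiefly liver sinusoidal endothelial cells (LSECs), in macrophages and in B cells. One library came from control mice, labelled WT, which the study describes as Cre-negative littermates carrying 1 or 2 floxed Maf alleles. The other came from Maf LSEC-KO mice, which carried Clec4g-iCre and were homozygous for the floxed Maf allele, so that recombination was driven by a promoter active in LSECs. Each library pooled 3 mice whose age and sex are not given for these samples, and cells were enriched with CD146 beads after liver digestion. With 1 library per genotype no test between genotypes was possible, and every interval given is an exact 95% interval that covers counting error only.

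MHC class I molecules, made of a heavy chain and B2m, show peptides from inside the cell to CD8 T cells. The peptides are cut by the proteasome, in which Psmb8 is an interferon-inducible subunit, and are carried into the endoplasmic reticulum by the transporter that contains Tap1. MHC class II molecules, alpha and beta chains that are assembled on the invariant chain Cd74, show peptides taken up from outside to CD4 T cells. Ciita is the coactivator that switches on the class II genes in B cells, dendritic cells and macrophages, and LSECs are known as liver cells able to present antigen.

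Of the 10 genes, 7 lie on mouse chromosome 17 within 1.27 Mb (GENCODE M21, mm10). H2-K1 lies at chr17:33996017-34000347 on the minus strand. Tap1 (chr17:34187553-34197225, plus strand) and Psmb8 (chr17:34197721-34201454, plus strand) are close neighbours. The class II genes H2-Ab1 (chr17:34257689-34269419, plus strand), H2-Aa (chr17:34282744-34287823, minus strand) and H2-Eb1 (chr17:34305867-34316674, plus strand) follow, and H2-D1 lies at chr17:35262730-35267499 on the plus strand. B2m lies at chr2:122147686-122153083 and Ciita at chr16:10480059-10528418, both on the plus strand.

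Upstream sequences of 3 class I and 2 class II genes are shown so that the letters known from such promoters can be seen in place. The RefSeq table (GRCm38.p6) matched 7 of the 10 genes, without H2-Ab1, Cd74 and Ciita. The 250 bases before the first listed RefSeq start of 5 of them follow, written 5′ to 3′ in the direction of the gene. RefSeq and GENCODE starts can differ, and the windows of H2-D1 and Psmb8 lie within the GENCODE positions given above. Motif positions are counted from the RefSeq start. Capitals mark motif matches on either strand.
H2-K1, chr17:34000348-34000597, minus strand: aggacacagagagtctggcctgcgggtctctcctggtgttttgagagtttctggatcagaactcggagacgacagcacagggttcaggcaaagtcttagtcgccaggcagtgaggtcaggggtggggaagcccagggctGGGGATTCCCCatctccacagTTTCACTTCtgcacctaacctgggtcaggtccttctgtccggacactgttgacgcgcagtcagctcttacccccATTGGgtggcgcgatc
H2-D1, chr17:35262844-35263093, plus strand: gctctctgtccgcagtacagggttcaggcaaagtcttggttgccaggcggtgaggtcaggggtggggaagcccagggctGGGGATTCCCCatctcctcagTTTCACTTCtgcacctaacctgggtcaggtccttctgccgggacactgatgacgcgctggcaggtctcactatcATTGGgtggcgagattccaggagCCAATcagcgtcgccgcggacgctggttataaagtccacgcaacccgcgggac
B2m, chr2:122147437-122147686, plus strand: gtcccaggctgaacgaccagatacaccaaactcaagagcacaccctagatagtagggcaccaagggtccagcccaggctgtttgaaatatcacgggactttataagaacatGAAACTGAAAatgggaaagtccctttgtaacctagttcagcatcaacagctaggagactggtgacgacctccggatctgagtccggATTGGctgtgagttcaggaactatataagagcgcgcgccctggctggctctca
H2-Aa, chr17:34287824-34288073, minus strand: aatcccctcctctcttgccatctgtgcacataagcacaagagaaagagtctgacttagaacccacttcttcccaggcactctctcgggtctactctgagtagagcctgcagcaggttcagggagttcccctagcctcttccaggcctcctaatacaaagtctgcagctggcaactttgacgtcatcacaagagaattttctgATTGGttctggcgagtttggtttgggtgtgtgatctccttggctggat
H2-Eb1, chr17:34305617-34305866, plus strand: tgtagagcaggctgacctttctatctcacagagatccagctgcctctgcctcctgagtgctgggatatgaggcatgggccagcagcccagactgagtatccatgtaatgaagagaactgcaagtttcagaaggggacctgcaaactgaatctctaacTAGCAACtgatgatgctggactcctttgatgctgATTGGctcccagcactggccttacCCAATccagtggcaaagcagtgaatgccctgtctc
The Y box, CCAAT, which NF-Y binds, was found in all 5 windows and in 33.8% of the 32817 promoter windows in the table. TAGCAAC, letters of the X box that RFX binds, was found at -93 to -87 of H2-Eb1, counted from the start, and in 3.16% of all windows. The interferon-stimulated response element was found at -139 to -130 of B2m and in 2.97% of all windows. H2-K1 and H2-D1 both held a kappa B site found in 0.0305% of windows, and on the opposite strand GAANTGAAA, a response element of shorter spacing found in 1.5% of windows. These last 2 motifs were added after the sequences had been read. The gamma-activated site TTCNNNGAA was found, among the 7 matched genes, in Psmb8, at -97 to -89, and in 7.01% of all windows. A match describes letters and does not show that a factor was bound.

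LSECs were taken as the cells of endothelial-like clusters without a UMI (unique molecular identifier, 1 captured transcript) of Vwf and without high doublet scores, which gave 4112 control cells and 3250 Maf LSEC-KO cells. The median depth was 8403 and 13870 UMIs per cell. Levels are given as CPM, the summed UMIs of a gene in a class for every 1000000 UMIs outside mitochondrial and ribosomal protein genes. Reads were taken at the 3′ end, so CPM does not rise with transcript length. Clec4g, the LSEC marker whose promoter drives the Cre, was at 3011 and 1508 CPM. Maf itself was at 3464 CPM in control LSECs and 125 CPM in those of Maf LSEC-KO mice, of which 21.3% still held a Maf UMI. Other classes were 79 and 251 macrophage-like cells, with C1qa, C1qb and Clec4f among the leading genes of one cluster and Adgre1 among those of the other, and 29 and 36 B cell-like cells, with Cd79a, Ms4a1 and Ighm among theirs. The libraries shared 10 cell barcodes.

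Class I genes were abundant in LSECs and differed little between genotypes, whereas Tap1 and Psmb8 were 2.14-fold and 2.05-fold higher in Maf LSEC-KO. For H2-K1, a classical heavy chain, control LSECs held 1893 CPM (1878 to 1907) and Maf LSEC-KO cells 2182 CPM (2168 to 2197), so the log2 ratio was 0.21 (0.19 to 0.22). H2-D1, the other classical heavy chain, stood at 1867 and 2103 CPM, with a log2 ratio of 0.17 (0.16 to 0.19) that was -0.018 when CPM was taken over all genes. Reads of near-identical H2 genes can be split between them, so the levels of single heavy chains are uncertain. B2m, the invariant light chain, stood at 3225 and 3238 CPM, with a log2 ratio of 0.0060 (-0.0057 to 0.018) that was below 0 under 6 of 17 alternative settings. The 9316 genes of at least 10 CPM in LSECs of either library had a median log2 ratio of 0.14, so H2-K1 and H2-D1 lay close to the median gene and B2m below it. The sum of H2-K1, H2-D1 and B2m came to 6985 and 7524 CPM, a log2 ratio of 0.11 (0.10 to 0.12) that turned to -0.082 with CPM over all genes and to -0.044 with TMM scaling. Those scalings lowered the log2 ratio of every gene by 0.19 and 0.15, the median gene included.

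Tap1, a subunit of the peptide transporter, was at 67.6 CPM (64.8 to 70.4) in LSECs of the control library and at 145 CPM (141 to 148) in the other, for a log2 ratio of 1.10 (1.03 to 1.17). For Psmb8 the levels were 157 CPM (152 to 161) and 321 CPM (315 to 326), for a log2 ratio of 1.03 (0.99 to 1.08). The intervals cover counting error only and are narrow at such UMI counts. Those of H2-K1, with a log2 ratio of 0.21, did not overlap between the libraries, like those of Tap1 and Psmb8. How many of all genes do the same was not counted, so the lack of overlap sets no gene apart. When every cell was thinned to 2700 UMIs, a step that dropped 406 and 187 shallower LSECs, Psmb8 was detected in 28.6% and 44.5% of LSECs. Without thinning the shares were 58.5% and 80.8%. Tap1 was detected in 13.5% and 23.5% of thinned LSECs and in 33.6% and 64.2% of all LSECs.

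**Figure D1:**
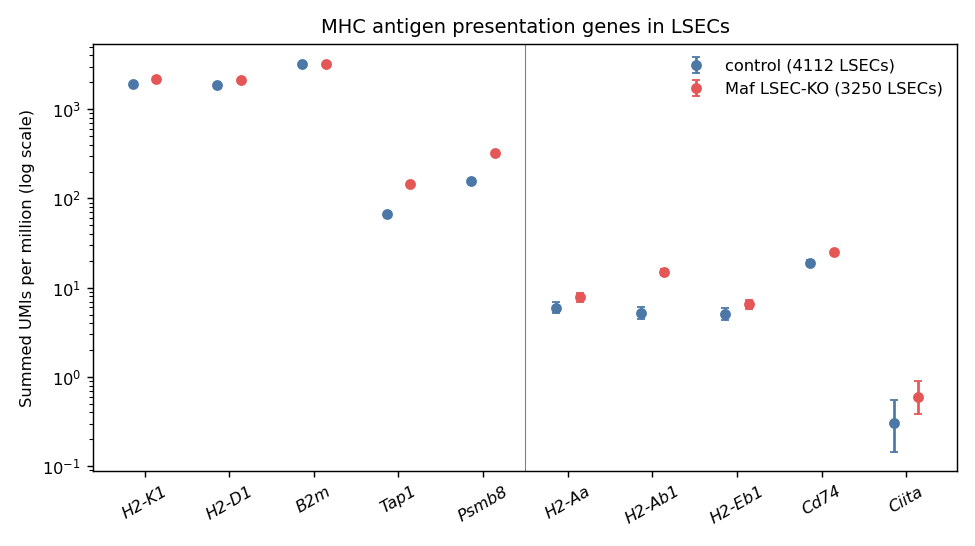
Levels of the 10 genes in LSECs, as summed UMIs scaled to CPM on a log axis, with 1 point per library and exact 95% Poisson intervals. H2-K1, H2-D1 and B2m lie at 1867 CPM or more in both libraries, Tap1 and Psmb8 are 2.14-fold and 2.05-fold higher in Maf LSEC-KO, and the class II genes and Ciita, right of the line, lie at 24.9 CPM or less.

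Class II genes were low in LSECs. H2-Aa, the alpha chain of I-A, stood at 5.94 CPM (5.14 to 6.84) in the control library and 7.80 CPM (6.96 to 8.71) in the Maf LSEC-KO library. H2-Eb1, the beta chain of I-E, stood at 5.09 and 6.50 CPM, and Cd74 at 18.9 and 24.9 CPM. Their log2 ratios were 0.39 (0.13 to 0.66), 0.35 (0.067 to 0.64) and 0.40 (0.25 to 0.55). H2-Ab1, the beta chain of I-A, differed more, from 5.19 CPM (4.44 to 6.02) in LSECs of the control library to 15.0 CPM (13.8 to 16.2) in those of the other, with a log2 ratio of 1.53 (1.28 to 1.78). The log2 ratios of all 4 turned below 0 when 2 set-aside clusters with endothelial genes were counted as LSECs. Ciita was counted 10 times in control and 24 times in Maf LSEC-KO LSECs, 0.303 and 0.598 CPM, and the interval of its log2 ratio, -0.14 to 2.21, included 0.

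The class II sum of H2-Aa, H2-Ab1, H2-Eb1 and Cd74 was 35.1 CPM (33.1 to 37.2) in LSECs of control and 54.2 CPM (51.9 to 56.5) in LSECs of Maf LSEC-KO mice, with a log2 ratio of 0.63 (0.52 to 0.73). In neutrophil-like cells, which should not make class II, the same sum was 92.0 CPM (49.0 to 157) and 73.0 CPM (48.1 to 106), at median depths of 3858 and 4297 UMIs. In control, 1 neutrophil-like cell held 8 of their 13 class II UMIs, and without it the level was 36.6 CPM, close to that of LSECs. When each cell was thinned once, at random, to 2700 UMIs, LSECs with a class II UMI made up 4.86% (4.19 to 5.60, 180 of 3706 cells) in control and 10.02% (8.98 to 11.1, 307 of 3063 cells) in Maf LSEC-KO, and 12.9% and 34.8% at full depth. Neutrophil-like cells with a class II UMI made up 5.71% (0.700 to 19.2, 2 of 35 cells) and 18.8% (10.9 to 29.0, 15 of 80 cells), and 15.4% and 24.7% at full depth. At equal depth the LSEC shares were not above those of neutrophil-like cells, which rest on few cells, so they are not read as expression, and the source of these UMIs was not tested. For H2-Ab1 alone the thinned shares were 0.917% (0.636 to 1.28, 34 of 3706 cells) and 3.04% (2.46 to 3.71, 93 of 3063 cells) in LSECs, against 0% (0 to 10.00, 0 of 35 cells) and 1.25% (0.0316 to 6.77, 1 of 80 cells) in neutrophil-like cells, with intervals that overlap within each library.

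A few LSECs held a large share of the class II UMIs. In control, 6 of 4112 LSECs with at least 10 class II UMIs held 45.8% of the 1157 UMIs, and 4 of the 6 held UMIs of at least 3 immune markers. In Maf LSEC-KO, 27 of 3250 LSECs held 24.5% of 2174 UMIs, and 23 of the 27 held at least 3 immune markers. That many immune markers were found in 14.6% of all control and 42.3% of all Maf LSEC-KO LSECs, at full depth, which was greater in Maf LSEC-KO. Without the cells of at least 10 class II UMIs, a choice made after seeing the data, the log2 ratio of the class II sum was 1.12. The part of immune transcripts in the difference was not tested.

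Clusters of the immune subset that also held endothelial genes were not counted as LSECs, and their class II levels were far higher. In control, the cluster led by Dnase1l3, an LSEC gene, kept 84 of 127 cells after doublet removal, with Clec4g at 2443 CPM. Its class II sum was 4673 CPM (4530.4 to 4819), which was 20.1% of all class II UMIs of the library, whereas 1 Maf LSEC-KO cell belonged to it. The Maf LSEC-KO cluster led by Pcp4l1 kept 35 of 125 cells at 4669 CPM (4491 to 4853), whereas control had 2 such cells. It held 4.56% of the class II UMIs of its library, taken over barcodes chosen in the same way. Adding both clusters to LSECs, an alternative chosen after seeing the data, turned the direction of class II, with sums of 157 and 117 CPM and a log2 ratio of -0.42. H2-Ab1 then gave -0.11, while Tap1 and Psmb8 gave 1.08 and 1.01. The origin of the class II UMIs in these clusters was not tested.

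Among the 7 genes that reached 10 CPM in LSECs of either library, 3 were at least 2-fold apart, all higher in Maf LSEC-KO (H2-Ab1, Tap1 and Psmb8), and 0 were at least 2-fold lower. H2-Ab1 lay at 5.19 and 15.0 CPM in LSECs and at 7.08 and 8.11 CPM in neutrophil-like cells, there from 1 and 3 UMIs. With CPM over all genes or with TMM scaling, 1 gene stayed 2-fold apart, H2-Ab1, at log2 ratios of 1.34 and 1.38, while Tap1 gave 0.91 and 0.95 and Psmb8 0.84 and 0.88. Of all 9316 genes at that level, 15% were at least 2-fold apart, 10.5% higher and 4.54% lower in Maf LSEC-KO. These shares were taken under the main scaling only. H2-Aa, H2-Eb1 and Ciita stayed under 10 CPM in both libraries. The median log2 ratio of the 7 genes was 0.40, which is the value of Cd74, against 0.14 over all genes. Cd74 and H2-Ab1 are class II genes, and class II detection in LSECs was not read as expression. H2-K1, H2-D1 and B2m gave 0.21, 0.17 and 0.0060.

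H2-Ab1 differed between the libraries in its share of the class II UMIs of LSECs. In Maf LSEC-KO LSECs with fewer than 10 class II UMIs it made up 30.8% (28.5 to 33.1) of 1642 UMIs, against 17.2% (14.3 to 20.4) of 627 UMIs in control LSECs. In cells that express class II strongly, the share was lower than in those Maf LSEC-KO LSECs and similar between the libraries. It was 14.3% and 13.5% in B cell-like cells, 16.9% and 17.2% in macrophage-like cells, and 19.4% and 19.95% in the immune cluster led by Cd209a, which mixes dendritic cell and monocyte markers. Among barcodes under the depth minimum, H2-Ab1 gave 84 of 522 class II UMIs in control and 338 of 1774 in Maf LSEC-KO. The limit of 10 class II UMIs was chosen after seeing the data. Over all LSECs, H2-Ab1 made up 14.8% of the class II UMIs in control and 27.6% in Maf LSEC-KO. Cd74 made up 53.8% and 46.0% of them.

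The H2-Ab1 share was also taken in subsets of the endothelial cells with fewer than 10 class II UMIs. In Maf LSEC-KO LSECs without a UMI of any immune marker it was 28.9% (19.5 to 39.9) of 83 UMIs, and in control LSECs of that kind 16.3% (9.42 to 25.5) of 92 UMIs, intervals that overlap. Endothelial cells with a Vwf UMI, which numbered 161 in control and 1182 in Maf LSEC-KO, gave 18.4% (8.76 to 32.0) of 49 UMIs and 33.5% (29.95 to 37.1) of 687 UMIs, and these intervals overlap too. Within the Maf LSEC-KO library, LSECs with at least 2 Maf UMIs gave 24.2% (18.1 to 31.1) of 182 UMIs and those with none 32.5% (29.9 to 35.2) of 1227 UMIs. The LSEC cluster led by Dnase1l3 and Maf, of 197 cells at 2337 CPM of Maf, gave 14.3% (7.07 to 24.7) of 70 UMIs. The cluster with Cxcl9 and Ifit3 among its leading genes, at 19.6 CPM of Maf, gave 35.3% (31.4 to 39.3) of 581 UMIs, and the cluster led by Hells gave 39.4% (33.3 to 45.7) of 254 UMIs. The cluster led by Depp1, of 1013 cells at 33.0 CPM of Maf, gave 21.6% (17.5 to 26.1) of 380 UMIs, an interval that overlaps that of all control LSECs. Over all clusters the share ran from 9.30% to 23.8% in control and from 14.3% to 43.5% in Maf LSEC-KO, ranges that overlap.

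**Figure D2:**
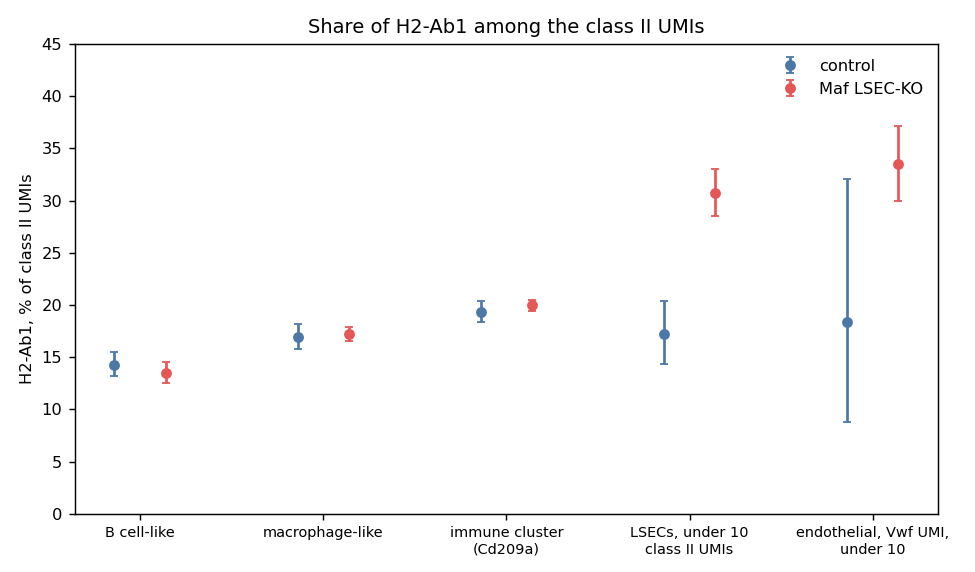
Share of H2-Ab1 among the UMIs of H2-Aa, H2-Ab1, H2-Eb1 and Cd74, in percent, by cell class and library, with exact 95% binomial intervals, where endothelial cells are those with fewer than 10 class II UMIs. B cell-like, macrophage-like and Cd209a-led cells lie between 13.5% and 19.95%, and Maf LSEC-KO endothelial cells lie at 30.8% and 33.5%. The limit of 10 UMIs was chosen after seeing the data.

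LSEC clusters, drawn within each library without the antigen presentation genes, ranged more widely in class I than the libraries as a whole. In control, the 7 clusters ran from 4233 CPM in the 388 cells led by Hba-a2 to 9483 CPM in the 956 cells led by Gm17167, Cxcl10 and Cxcl9. Before doublets and Vwf cells were left out, the median depths of these clusters were 3066 and 11796 UMIs. Cxcl9 and Cxcl10 encode interferon-induced chemokines. In Maf LSEC-KO, the 9 clusters ran from 5417 CPM in the 1013 cells led by Depp1 to 9797 CPM in the 114 cells led by Atp13a3. The cluster led by Atp13a3 also had Gja5, Jag1 and Vegfc among its leading genes, and 380 cells before Vwf cells were left out. Clusters led by Rspo3 and by Dcn were among the 9 too. Whether the cells left in these clusters are sinusoidal was not tested. The Maf LSEC-KO chemokine cluster, led by hemoglobin genes and with Ubd, Rsad2 and Cxcl9 among its 10 leading genes, held 1043 cells at 9446 CPM. Between the chemokine clusters of the libraries the log2 ratio of the class I sum was -0.0056. These values describe the clusters and were not tested.

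Psmb8 stood at 207 CPM in the control chemokine cluster and 423 CPM in that of Maf LSEC-KO. In the most populous other cluster of each library, led by Flrt1 in control and Depp1 in Maf LSEC-KO, it stood at 116 and 194 CPM. Over all clusters it ran from 52.3 to 232 CPM in control and from 145 to 423 CPM in Maf LSEC-KO, ranges that overlap. Tap1 stood at 105 and 180 CPM in the chemokine clusters and at 41.6 and 80.9 CPM in the others. In the Maf LSEC-KO cluster that kept Maf, Psmb8 was at 145 CPM and Tap1 at 78.4 CPM.

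**Figure D3:**
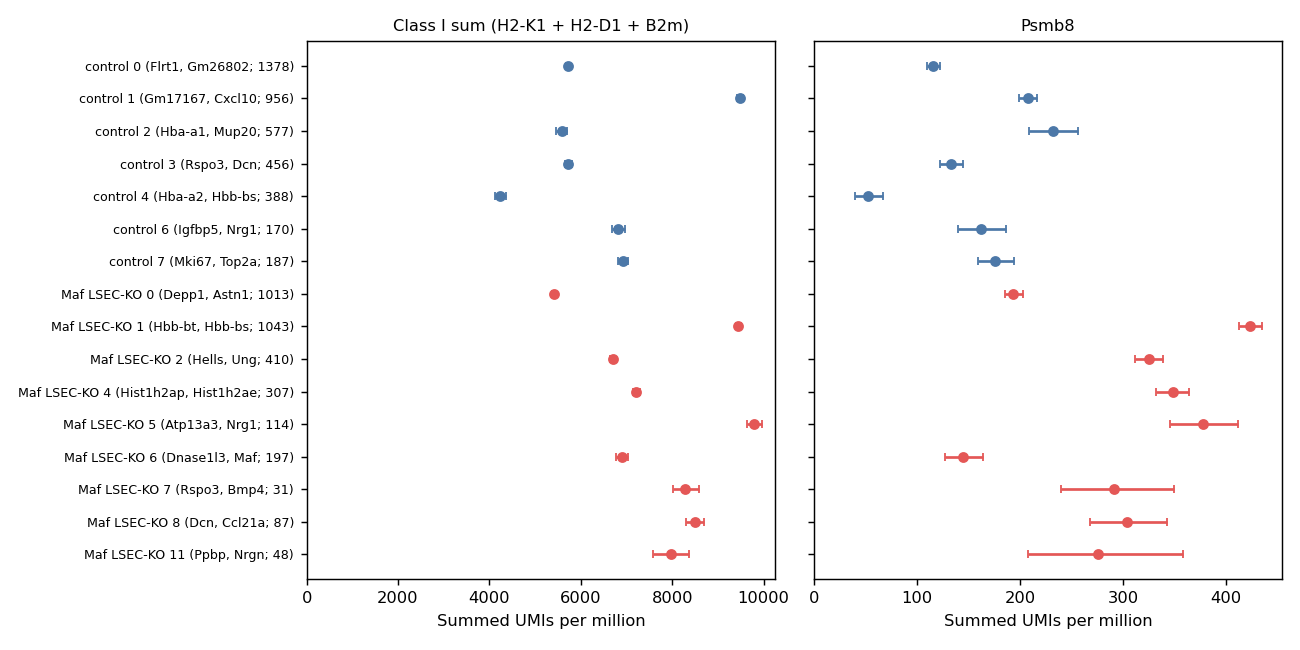
Summed UMIs scaled to CPM of the class I sum (left) and of Psmb8 (right) in each LSEC cluster, named by library, number, 2 leading genes and cell count, with exact 95% Poisson intervals. The chemokine clusters, control 1 and Maf LSEC-KO 1, lie at 9483 and 9446 CPM for class I, whereas Psmb8 lies at 207 and 423 CPM.

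LSECs with a UMI of Cxcl9 or Cxcl10 made up 61.6% of the control and 80.8% of the Maf LSEC-KO cells. The median depths of these cells were 9910 and 15703.5 UMIs, and the shares were not taken at equal depth. Their difference is therefore not read as one of expression. The class I sum of LSECs with such a UMI was 7629 and 7677 CPM, and that of LSECs without one 5346 and 6069 CPM. In LSECs without either UMI, whose median depths were 6087 and 6055 UMIs, Psmb8 stood at 122 CPM (115 to 129.8) and 229 CPM (214 to 245), and Tap1 at 45.2 and 102 CPM. The share of LSECs with a Mki67 or Top2a UMI, genes of dividing cells, was 4.16% and 33.5%, also at unequal depth. Without those LSECs Psmb8 was at 155 and 318 CPM. Endothelial cells with a Vwf UMI held Psmb8 at 223 and 328 CPM and Tap1 at 74.7 and 129 CPM.

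Maf LSEC-KO LSECs that kept at least 2 Maf UMIs numbered 347. Psmb8 was at 224 CPM (209.8 to 238) and Tap1 at 105 CPM (95.3 to 115) in them, against 334 CPM (328 to 341) and 151 CPM (147 to 156) in the 2557 cells with no Maf UMI. Both levels in these 347 cells lay above those of control LSECs, 157 and 67.6 CPM, whereas in the cluster that kept Maf Psmb8, at 145 CPM, lay below the control level and Tap1, at 78.4 CPM, above it. Median depths were 11543 and 13609 UMIs.

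Class I was abundant in every class examined. Macrophage-like cells held 9463 CPM (9193 to 9739) of the class I sum in the control library and 8462 CPM (8312 to 8614) in the Maf LSEC-KO library, with a log2 ratio of -0.16 (-0.21 to -0.11). B cell-like cells held 7292 and 7483 CPM, with a log2 ratio of 0.037 (-0.093 to 0.17). In the neutrophil-like, T/NK cell-like and Cd209a-led cells the sum ran from 5294 CPM in control neutrophil-like cells to 12169 CPM in the Maf LSEC-KO T/NK cell-like cells led by Cd3g. No nucleated class is known to lack class I, so its background could not be set.

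Class II levels separated the classes far more widely. In control cells the class II sum was 211-fold higher in macrophage-like cells and 949-fold higher in B cell-like cells than in LSECs, and in Maf LSEC-KO 168-fold and 529-fold. The cluster led by Cd209a reached 26697 and 42972 CPM. Of all class II UMIs in kept cells, doublets included, LSECs contributed 5.73% in control and 3.84% in Maf LSEC-KO, without the set-aside clusters. Yet LSECs were 82.9% and 59.9% of those cells. The 26 control and 63 Maf LSEC-KO cells led by Cd209a contributed 27.6% and 36.9%.

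**Figure D4:**
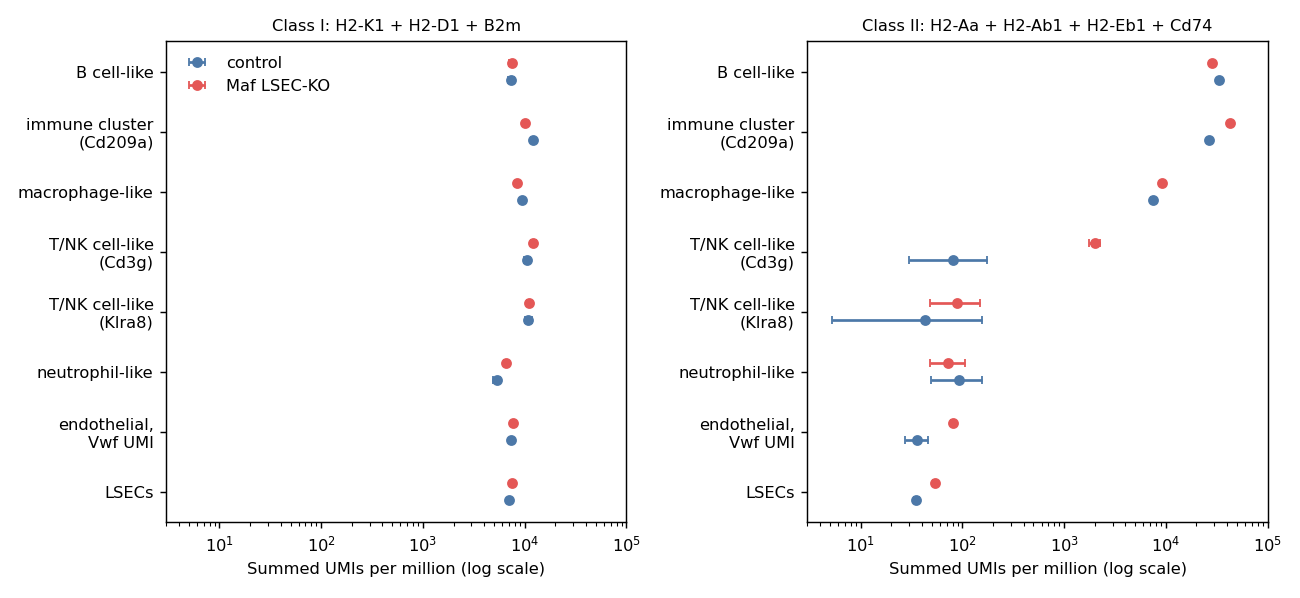
Summed UMIs scaled to CPM of the class I genes (left) and the class II genes (right) by cell class, on log axes, with 1 point per library and exact 95% Poisson intervals. Class I spans 5294 to 12169 CPM, and class II spans 35.1 CPM in control LSECs to 42972 CPM in the Maf LSEC-KO cluster led by Cd209a. The point at 1995 CPM for T/NK cell-like cells led by Cd3g comes mainly from 1 cell with 236 of 242 UMIs.

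In macrophage-like cells the class II genes were moderately higher in Maf LSEC-KO, a direction that depended on how the cells were chosen. Cd74 stood at 4149 CPM (3971 to 4333) in the control library and 4736 CPM (4623 to 4849.9) in the Maf LSEC-KO library. H2-Aa stood at 1225 and 1629 CPM, H2-Ab1 at 1257 and 1569 CPM, and H2-Eb1 at 788 and 1169.5 CPM. The log2 ratio of the class II sum was 0.30 (0.24 to 0.35), and it was 0.30 and 0.29 in the macrophage-like clusters led by Apoc1 and by Ccl8 taken alone. It turned to -0.40 when classes came from the clusters of each library (217 and 389 cells), and to -0.85 when cells were chosen by 3 markers each (272 and 845 cells).

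Ciita was counted 6 times in 79 control macrophage-like cells and 65 times in 251 Maf LSEC-KO ones, at 12.2 CPM (4.47 to 26.5) and 45.5 CPM (35.2 to 58.1), with a log2 ratio of 1.90 (0.70 to 3.40). Of the 10 genes it was the 1 at least 2-fold apart in these cells, where 11.6% of 8737 genes of at least 10 CPM were. Its ratio was not taken under the other choices of cells, some of which turned the direction of the class II sum. By direction, 8.3% of all genes passed 2-fold upwards and 3.34% downwards. H2-D1 stood at 3196 and 2550 CPM, H2-K1 at 2181 and 2206 CPM, and B2m at 4086 and 3706 CPM. Tap1 stood at 118 and 114 CPM and Psmb8 at 309 and 329 CPM, with log2 ratios of -0.044 (-0.48 to 0.41) and 0.090 (-0.18 to 0.36).

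In B cell-like cells 0 of the 10 genes were 2-fold apart, while 39.2% of 9075 genes were at this depth of 29 and 36 cells, 21.4% higher and 17.7% lower in Maf LSEC-KO. Cd74 stood at 18380.1 and 16519 CPM and H2-Aa at 5644 and 4175 CPM. H2-Ab1 stood at 4756 and 3875 CPM and H2-Eb1 at 4520.3 and 4081 CPM, and the class II sum gave a log2 ratio of -0.22 (-0.28 to -0.15). It turned to 1.01 when classes came from the clusters of each library (47 and 39 cells) and to 0.62 by 3 markers in a cell (49 and 39 cells). Ciita stood at 217 and 243 CPM, Psmb8 at 716 and 562 CPM and Tap1 at 109 and 144 CPM, with log2 ratios of 0.16 (-0.61 to 0.96), -0.35 (-0.80 to 0.11) and 0.40 (-0.67 to 1.54).

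**Figure D5:**
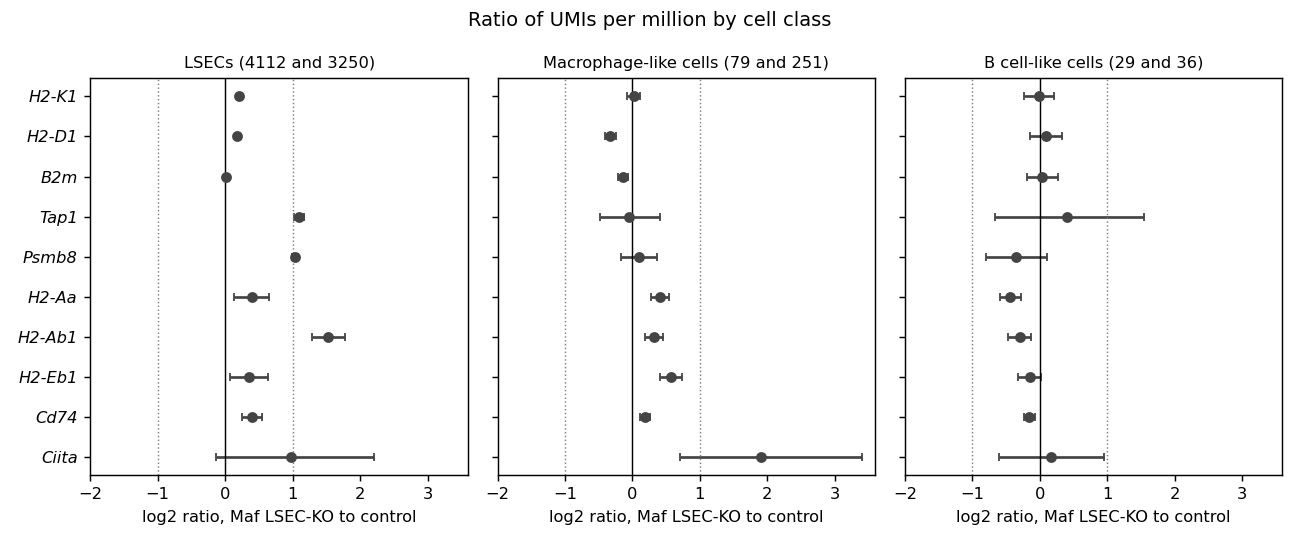
Log2 ratio of Maf LSEC-KO to the control library for the 10 genes in LSECs, macrophage-like cells and B cell-like cells, with the cell numbers of both libraries in brackets, exact 95% intervals for counting error and dotted lines at 2-fold. Tap1, Psmb8 and H2-Ab1 pass 2-fold in LSECs, though under TMM scaling H2-Ab1 alone does. Ciita passes it in macrophage-like cells, from 6 and 65 UMIs, and was not taken under other choices of those cells.

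Of the 25 other class I pathway genes listed, 24 were in the table and 21 reached 10 CPM in LSECs. Among these, 1 was at least 2-fold higher and 1 at least 2-fold lower in Maf LSEC-KO, with a median log2 ratio of 0.34. For this list and those below, the background was 15% of all 9316 genes at least 2-fold apart, with a median of 0.14. H2-Q10, a secreted class I chain, stood at 12.7 and 27.0 CPM, and Mr1, which presents vitamin B metabolites, at 29.96 and 14.8 CPM. In B cell-like cells H2-Q10 stood at 181 and 131 CPM, from 20 and 21 UMIs, and in macrophage-like cells at 12.2 and 13.3 CPM. The source of its UMIs in LSECs was not tested. The most abundant were the chaperones Calr (1106 and 1012 CPM), Pdia3 (943 and 843 CPM) and Canx (652 and 550.1 CPM), with log2 ratios of -0.13, -0.16 and -0.25. Of the 20 other class II pathway genes, 19 were in the table and 11 reached 10 CPM, with 1 at least 2-fold higher, 2 at least 2-fold lower and a median of 0.016. Ctss, a protease that trims the invariant chain, stood at 9.46 and 20.5 CPM, while the lysosomal proteases Ctsl (1247 and 397 CPM) and Lgmn (508 and 52.9 CPM) were lower in Maf LSEC-KO. Ctss was also among the leading genes of a control immune cluster with macrophage markers, and the source of its UMIs in LSECs was not tested. Creb1, a transcription factor, was the third most abundant of that list, at 108 and 101 CPM.

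All 10 interferon gamma pathway genes reached 10 CPM, with a median log2 ratio of 0.22. Socs3, a feedback inhibitor of cytokine signalling, was 2-fold apart, at 37.1 and 89.7 CPM. Abundant members of the list were Jak1, a receptor-associated kinase (1440.3 and 888 CPM), and Irf2, a transcription factor (228 and 194 CPM). Of 6 costimulation genes, 1 reached 10 CPM, the inhibitory ligand Cd274, at 24.5 and 24.5 CPM.

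Across 16 points, 8 cell classes in each library, the genes whose log2(CPM + 1) followed the class II sum most closely were Ly86, Blnk, Ifi30, H2-DMa and H2-DMb1, with Pearson correlations of 0.960 down to 0.938 among 7836 genes. Those that followed the class I sum were Nlrc5, Zmat5, Bscl2, Axin1 and Ccr2, with correlations of 0.925 down to 0.895. The points share libraries and differ in depth, and the correlations are descriptions.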

How the data were processed

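Single-cell 3′ libraries of liver cells, 1 from control and 1 from Maf LSEC-KO mice, were analysed from the deposited counts, which are UMI counts per gene and barcode that the authors made with Cell Ranger 6.0.2 on mm10 (submitters' processing notes, which also name Seurat 5.0.1). The study subtracted an empty-droplet profile, a step that was not repeated here. The deposited barcodes held at least 500 UMIs each, in all 47681895 UMIs in 5664 control barcodes and 89872764 UMIs in 7091 Maf LSEC-KO barcodes. Barcodes of at least 1500 UMIs and 750 genes were kept (4961 and 5423). Scrublet (in Scanpy 1.11.5) called 0 doublets by its own threshold, so the 225 and 308 cells with the highest scores were removed, for expected rates of 4.53% and 5.67%. Cells were clustered per library in Seurat 5.3.0 (R 4.3.3, 2000 variable genes without the antigen presentation genes, 16 and 20 components, resolution 0.3), and the immune clusters of both libraries again together (20 components, resolution 0.5). Endothelial-like clusters held at least 7 of 14 endothelial markers, Pecam1 included, in 50% or more of their cells. Clusters with Adgre1, Clec4f, Ptprc, Cd52, Acta1 or Arg1 in over 50% of their cells were left out of these, whatever their endothelial markers. Those with Ptprc in over 50% of their cells were the immune clusters. An immune cluster was named from at least 3 markers of 1 class, and fewer of any other, among its 50 leading genes. Other immune clusters are called by their leading gene.

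UMIs were summed per class, with exact Poisson intervals for levels, conditional binomial intervals for ratios and Clopper-Pearson intervals for shares. A gene was called when at least 2-fold apart. The intervals were tested on simulated Poisson counts. Those counts hold no clumping of UMIs in single cells and no spread between mice, so coverage under either was not tested. edgeR 4.0.16 gave the TMM factors alone. The text names the 10 genes, the pathway genes of at least 10 CPM in LSECs that were 2-fold apart or among the 3 most abundant of their list, and the 5 genes most like each sum, except 1 result that is not reported here. The 10 genes, the lists and the comparisons were chosen with earlier results of these data known.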

Additional observations from a re-analysis of the deposited data

Results flagged for a closer look

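The class I sum moved in opposite directions between cell classes. Its log2 ratio, Maf LSEC-KO over control, was 0.11 in LSECs and -0.16 in macrophage-like cells. The class II sum did so too, with 0.63 in LSECs and 0.30 in macrophage-like cells against -0.22 in B cell-like cells. The differences between classes were not tested. The class I value of LSECs turned to -0.082 with CPM over all genes and to -0.044 with TMM scaling. The class II values turned with the choice of cells. They were -0.42 in LSECs with the clusters led by Dnase1l3 and by Pcp4l1 added, -0.40 and -0.85 in macrophage-like cells and 1.01 and 0.62 in B cell-like cells.

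Barcodes under the depth minimum, 703 of the control and 1668 of the Maf LSEC-KO library, entered no comparison of levels. Their class II sum was 1203 CPM (1102 to 1311) in the control library and 1820.1 CPM (1736 to 1907) in the Maf LSEC-KO library. Their class I sum was 5560.3 CPM (5341 to 5787) and 7664 CPM (7491 to 7840.0). H2-Ab1 was at 194 and 347 CPM among them, and Cd74 at 622 and 931 CPM.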

How the results depend on the processing

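With 1 library per genotype no value has a replicate check. No paired analysis was possible because there is 1 library per genotype. In LSECs, H2-Ab1 was at least 2-fold higher in Maf LSEC-KO under 16 of 17 (log2 ratio -0.11 to 2.03) alternatives, Tap1 under 14 of 17 (log2 ratio 0.78 to 1.29) and Psmb8 under 11 of 17 (log2 ratio 0.84 to 1.09). B2m kept its direction under 11 of 17, and H2-D1 under 16. Of the 10 genes, 3 were at least 2-fold apart as reported, 1 with CPM over all genes, 1 with TMM and 6 without LSECs with a Cxcl9 or Cxcl10 UMI. The last count takes in genes of any level. At 10 CPM or more it was 4 of 8 genes (H2-Aa, H2-Ab1, Cd74, Tap1), and Psmb8 dropped out at 0.90. The share of all genes 2-fold apart, 15% of 9316 genes of at least 10 CPM, was taken as reported only, so these alternative counts have no background.

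The class I sum in LSECs gave a log2 ratio of -0.082 with CPM over all genes, 0.19 as the mean over cells, 0.030 with median of ratios scaling, -0.044 with TMM, 0.25 without LSECs with an immune marker UMI (899 and 308 cells left), 0.10 at 3000 UMIs per cell, 0.18 without LSECs with a Mki67 or Top2a UMI, 0.18 without those with a Cxcl9 or Cxcl10 UMI and 0.14 in thinned cells. For class II in LSECs these were 0.44, 1.04, 0.55, 0.47, 0.97, 0.66, 0.82, 1.43 and 1.09, with 1.01 when doublets and 0.82 when Vwf cells were kept. Alternatives chosen after seeing the data gave 0.12 and 0.51 for class I and class II without Maf LSEC-KO LSECs with a Maf UMI, -0.0056 and 1.30 in the chemokine clusters alone, 0.10 and -0.42 with the set-aside clusters led by Dnase1l3 and by Pcp4l1 added (H2-Ab1 -0.11), and 1.12 for class II without LSECs of at least 10 class II UMIs.

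In macrophage-like cells class I gave -0.054 as the mean over cells and, chosen after seeing the data, -0.045 and -0.21 in the clusters led by Apoc1 and by Ccl8. Class II gave 0.16 as the mean over cells, -0.85 by 3 markers, 1.19 without cells with a UMI of at least 3 endothelial markers (12 and 55 cells left) and, chosen after seeing the data, -0.40 by the clusters of each library. In B cell-like cells class I gave -0.39 without such cells (15 and 6 left), and class II 0.62 by 3 markers and, chosen after seeing the data, 1.01 by the clusters of each library. Scalings move all genes alike, and for the other settings the cause was not tested.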

Other observations

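The 37 Maf LSEC-KO cells of a cluster led by Spp1, with cholangiocyte and hepatocyte markers among its leading genes, held 6529.7 CPM (6313 to 6752) of the class I sum and 750.3 CPM (678 to 828) of the class II sum. At 2700 UMIs, 59.5% of them had a class II UMI. The 130 control cells of a cluster led by Spp1, which also held endothelial markers, held a class II sum of 143 CPM (123 to 165). Ciita was counted 0 and 0 times in the control and the Maf LSEC-KO cluster.

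Of the 242 class II UMIs in 24 Maf LSEC-KO T/NK cell-like cells led by Cd3g, 236 came from 1 cell. Without it the class II level was 55.2 CPM, and in the 15 control cells without their highest cell 48.9 CPM.

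In the control library, 23 LSECs held no Maf UMI, at a median depth of 2668 UMIs. Their class II sum was 3423 CPM (3024 to 3861) and their class I sum 11975 CPM (11217 to 12772). Of their 265 class II UMIs, 262 came from 1 cell, and without it the class II level was 56.6 CPM.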
